A study of Oryctolagus cuniculus with 16 samples.

Results

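NF-kappa-B subunits and the genes that restrain them were followed across 4 kinds of tibial site in the rabbit, 10 days after surgery. The members were the rows of the deposited gene table whose symbol is NFKB1, NFKB2, REL, RELA, RELB, NFKBIA, NFKBIE, NFKBIZ, TNFAIP3 or BCL3. Of these 10 names, 8 had a row among the 29587 genes of the table, and RELA and RELB were not analysed here. All 8 passed the filter on low counts, which kept 11617 genes.

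NF-kappa-B is a family of transcription factors built from paired Rel-domain subunits. In resting cells IkappaB proteins hold the dimers in the cytoplasm. Stimuli such as TNF, interleukin 1 family cytokines and bacterial products activate the IkappaB kinase complex, the inhibitor is degraded and the dimers move to the nucleus. Many subunit and inhibitor genes are themselves targets of the pathway. In bone the pathway is best known for its part in innate immune cells and, from mouse knockouts, in the formation of osteoclasts.

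Each of 4 rabbits carried every kind of site once, and each kind took each of the 4 tibial positions once. Replicate numbers 1 to 4 are the rabbits. Turned Cu sites held a turned copper implant (4 libraries). SLA Ti sites held titanium that had been sandblasted with large grit and acid-etched (4 libraries). Turned Ti sites held turned commercially pure titanium (4 libraries). Sham sites are labelled only as such, and their tissue likewise came from a drilled hole (4 libraries). All animals had been operated on at both tibiae, no site was left undrilled, and no source used here gives strain, sex or age. Tissue was scraped from the hole wall after the implant was taken out, so each library is a mixture of the cells that lined the hole. In the main fit, p-values rest on the spread between libraries of the same kind, pooled over all 16. Libraries of a kind differ in both rabbit and tibial position, so that spread holds both.

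The libraries held 8539984 to 20406474 counts, of which 965804 to 3960681 fell on nuclear protein-coding genes. Mitochondrial genes took 26.9% to 84.1% and nuclear ribosomal RNA genes 0.349% to 65.3% of the counts. Ribosomal RNA passed 40% in 3 libraries, Sham replicate 2 (65.3%), Turned Ti replicate 4 (49.6%) and SLA Ti replicate 4 (44.8%). The 8 members together gave 330 to 4869 counts a library. Levels are given as CPM, counts relative to a library size scaled by TMM, a factor that sets the bulk of genes equal between libraries. The factors were 0.251 and 0.291 in Turned Cu replicates 2 and 4, the lowest of the 16, against 0.571 to 1.66 in Sham.

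All 8 members were called higher beside copper than in sham holes and beside turned titanium, and 5 of the 8 were called higher than beside SLA titanium. Of all tested genes, 23.2%, 21.1% and 15.3% were called higher in these comparisons. NFKBIZ differed most, 13.8-fold against Sham, and NFKB1 least, 3.58-fold. Beside SLA titanium all 8 members had means above those of Sham and of Turned Ti, but none of the 8 passed the test across all genes. No member passed the test between turned titanium and sham sites. Because these are bulk samples, more cells of a type that carries these transcripts and more transcript per cell cannot be told apart.

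**Figure D1:**
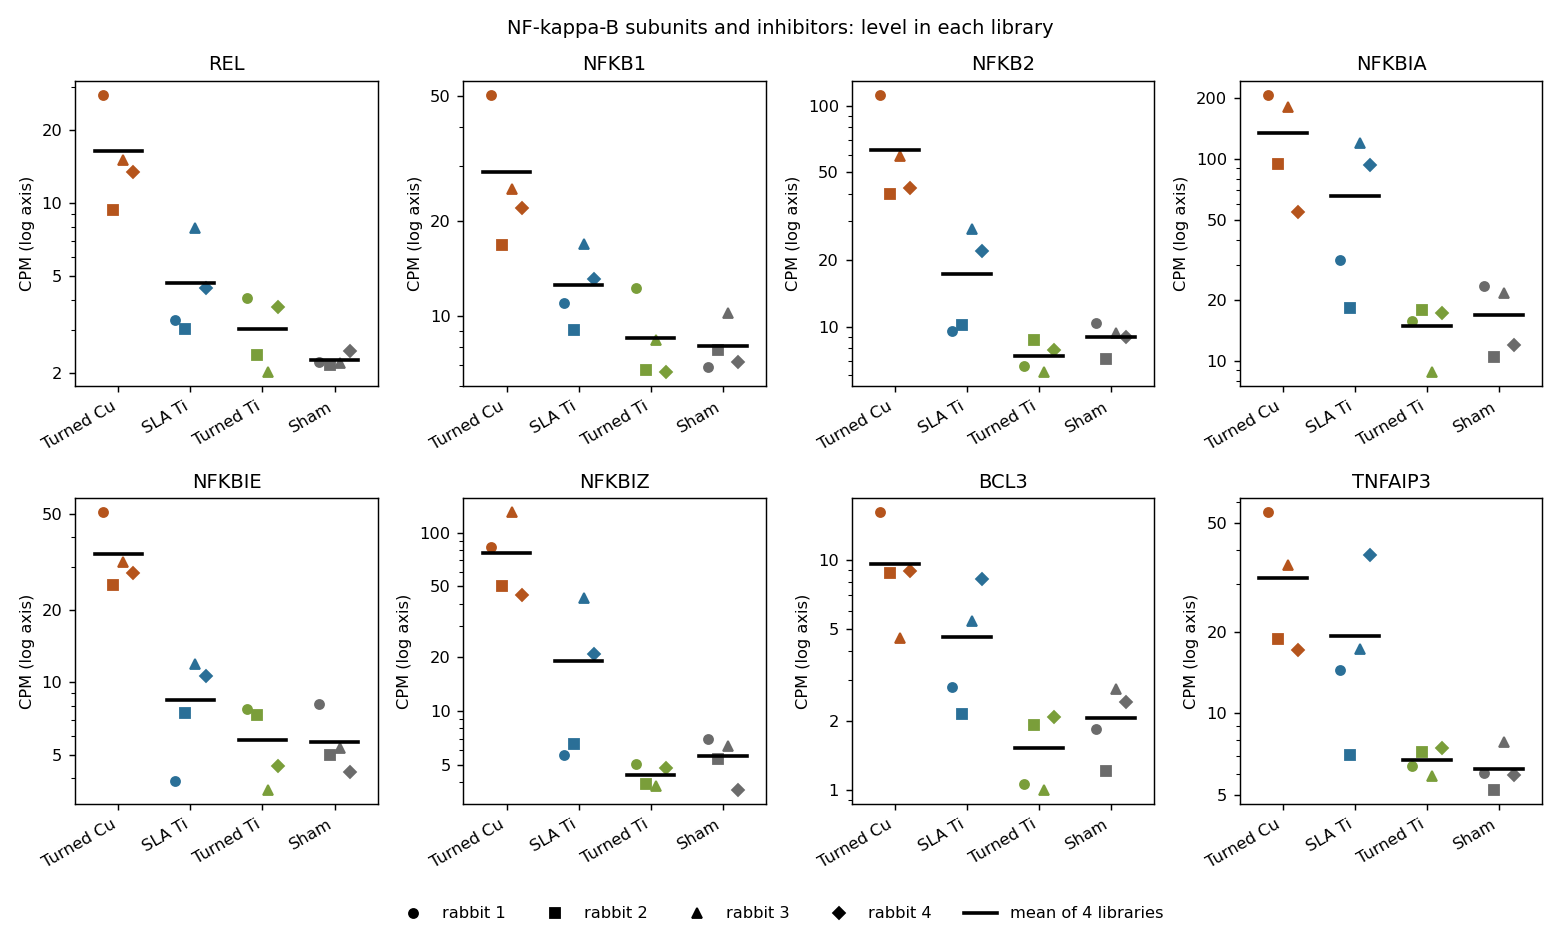
Level of each of the 8 NF-kappa-B genes in every library, as CPM of the TMM-scaled library size on a log axis. Points are libraries and bars are group means. Turned Cu lies above Sham and Turned Ti without overlap in all 8 panels, which holds for 21.8% and 19% of all tested genes. SLA Ti overlaps Sham in 7 of the 8, as for NFKBIZ, where SLA Ti runs from 5.63 to 42.9 CPM.

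Among the subunits, REL encodes c-Rel, an activating subunit best known in lymphoid and myeloid cells. The gene (ENSOCUG00000004968) lies on the minus strand of chromosome 2, bases 125305457 to 125350056 in the gene table's coordinates, for which no source used here names a genome build. REL had 28.0, 9.36, 15.1 and 13.4 CPM in Turned Cu replicates 1 to 4, against 3.29, 3.02, 7.92 and 4.49 CPM in SLA Ti, 4.07, 2.36, 2.01 and 3.73 CPM in Turned Ti and 2.203, 2.15, 2.202 and 2.45 CPM in Sham. Every Turned Cu library was above every other library, and the Sham libraries lay close together. The mean was 16.5 ± 8.04 CPM in Turned Cu and 2.25 ± 0.135 CPM in Sham (SD, n = 4 each), a log2 difference of 2.87 ± 0.39 (SE; adjusted p = 4.15e-05). REL was the only member for which each SLA Ti library exceeded each Sham library.

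NFKB1 encodes a precursor whose processed product is the DNA-binding partner in the classical dimer. It lies on the minus strand of chromosome 15 at 47003122 to 47236638 (ENSOCUG00000021712). NFKB1 had 50.5, 16.8, 25.4 and 22.0 CPM in Turned Cu, 11.0, 9.04, 16.9 and 13.1 CPM in SLA Ti, 12.3, 6.74, 8.42 and 6.63 CPM in Turned Ti and 6.91, 7.80, 10.2 and 7.15 CPM in Sham. Turned Cu replicate 1 stood highest, the lowest Turned Cu library was 16.8 CPM, just under the highest SLA Ti library at 16.9 CPM, and Turned Ti and Sham lay among each other. The log2 difference of Turned Cu from Sham was 1.84 ± 0.34 (adjusted p = 0.000404). Without Turned Cu replicate 1 it was 1.25 (adjusted p = 0.00508).

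NFKB2 encodes the corresponding precursor of the noncanonical pathway, whose processed product usually pairs with RELB. It lies on the plus strand of chromosome 18 at 50404793 to 50412452 (ENSOCUG00000005735). The gene overlaps PSD on the opposite strand, which had 17 counts over all libraries against 4338 for NFKB2. NFKB2 had 112, 39.8, 59.4 and 42.5 CPM in Turned Cu, 9.50, 10.1, 27.6 and 22.1 CPM in SLA Ti, 6.62, 8.65, 6.20 and 7.79 CPM in Turned Ti and 10.4, 7.12, 9.36 and 9.00 CPM in Sham. Turned Cu was again above all other libraries, and every SLA Ti library was above every Turned Ti library. Turned Cu exceeded Sham by 2.82 ± 0.40 on the log2 scale (adjusted p = 5.01e-05), 7.06-fold.

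Among the cytoplasmic inhibitors, NFKBIA encodes IkappaB alpha, which binds the classical dimer, is degraded on stimulation and is then made anew as an early target. The gene lies on the minus strand of chromosome 17 at 55106578 to 55109740 (ENSOCUG00000015642). NFKBIA had 208, 94.3, 180.4 and 54.7 CPM in Turned Cu, 31.8, 18.3, 120.3 and 93.4 CPM in SLA Ti, 15.8, 17.9, 8.81 and 17.2 CPM in Turned Ti and 23.6, 10.5, 21.8 and 12.1 CPM in Sham. Turned Cu lay above Turned Ti and Sham without overlap, but SLA Ti replicates 3 and 4 reached into the copper range. The log2 difference of Turned Cu from Sham was 2.98 ± 0.57 (adjusted p = 0.000493).

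NFKBIE encodes IkappaB epsilon, another cytoplasmic inhibitor. It lies on the minus strand of chromosome 12 at 33637530 to 33644806 (ENSOCUG00000017894). NFKBIE had 50.9, 25.3, 31.7 and 28.6 CPM in Turned Cu, 3.91, 7.46, 11.9 and 10.6 CPM in SLA Ti, 7.75, 7.33, 3.58 and 4.47 CPM in Turned Ti and 8.16, 4.97, 5.32 and 4.26 CPM in Sham. No library of another kind came within reach of the lowest copper value, 25.3 CPM, the highest being SLA Ti replicate 3 at 11.9 CPM. Turned Cu exceeded Sham by 2.59 ± 0.38 on the log2 scale (adjusted p = 6.95e-05).

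NFKBIZ and BCL3 encode nuclear IkappaB proteins, which bind NF-kappa-B on DNA and can raise or lower transcription; NFKBIZ is known in mouse macrophages as a requirement for a set of late-induced genes. NFKBIZ lies on the minus strand of chromosome 14 at 118679073 to 118690066 (ENSOCUG00000000133), and BCL3 on the plus strand of an unplaced scaffold at 15500 to 24763 (ENSOCUG00000026628). NFKBIZ had 83.6, 50.1, 130.4 and 44.5 CPM in Turned Cu, 5.63, 6.54, 42.9 and 20.9 CPM in SLA Ti, 5.01, 3.88, 3.80 and 4.80 CPM in Turned Ti and 6.97, 5.38, 6.36 and 3.62 CPM in Sham. The copper libraries stood above all 12 others, and SLA Ti replicates 3 and 4 stood above the rest. The mean was 77.2 ± 39.5 CPM in Turned Cu and 5.58 ± 1.47 CPM in Sham (SD, n = 4 each), a log2 difference of 3.79 ± 0.57 (adjusted p = 8.22e-05).

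BCL3 had 16.1, 8.77, 4.58 and 8.94 CPM in Turned Cu, 2.80, 2.14, 5.40 and 8.21 CPM in SLA Ti, 1.07, 1.92, 1.00 and 2.07 CPM in Turned Ti and 1.85, 1.21, 2.75 and 2.41 CPM in Sham. It rested on the fewest counts of the 8, 866 over all libraries. Turned Cu replicate 3, which had the highest NFKBIZ, had the lowest BCL3 of the copper libraries, below SLA Ti replicates 3 and 4. The log2 difference of Turned Cu from Sham was 2.19 ± 0.47 (adjusted p = 0.00114).

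TNFAIP3 encodes a ubiquitin-editing enzyme that damps signalling from TNF and Toll-like receptors. It lies on the plus strand of chromosome 12 at 128329706 to 128460517 (ENSOCUG00000002310). TNFAIP3 had 54.9, 18.7, 35.1 and 17.0 CPM in Turned Cu, 14.4, 7.03, 17.3 and 38.1 CPM in SLA Ti, 6.40, 7.23, 5.88 and 7.46 CPM in Turned Ti and 6.01, 5.24, 7.83 and 5.95 CPM in Sham. SLA Ti replicate 4 was second only to Turned Cu replicate 1, so copper and SLA titanium overlapped, while Turned Ti and Sham lay in a narrow band. Turned Cu exceeded Sham by 2.33 ± 0.45 on the log2 scale (adjusted p = 0.000541).

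The first comparison, Turned Cu against Sham, asks how tissue beside copper differed from that of the sham hole. All 8 members rose, with adjusted p of 0.00114 or less by edgeR's quasi-likelihood F test, while 23.2% of all tested genes were called higher (2695 of 11617) and 2275 were called lower. Their median log2 difference was 2.702, and that of all tested genes was -0.06. For all 8 members every Turned Cu library exceeded every Sham library, which held for 21.8% of genes. Each was higher in 4 of 4 rabbits. Leaving out any single library kept all 8 calls, and Turned Cu replicate 1 was the library whose loss lowered 7 of the 8 values most; for NFKBIZ it was replicate 3, without which its log2 difference was 3.22. Without replicate 1 NFKB2 was at 2.22 (adjusted p = 0.000478) and BCL3 at 1.60 (adjusted p = 0.0123).

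The split of calls depended on the scaling. With the counts on protein-coding genes as library size in place of TMM, 1630 genes were called higher and 4233 lower between Turned Cu and Sham, and the median of all genes was -0.74. The 8 members still rose under that scaling, which was chosen after seeing the data. On RPKM (counts per length and library size) as deposited, with no further scaling, the median of all genes was -1.0 and 1 member, NFKBIZ, passed limma's test. That test called 689 of 11617 genes higher and 2914 lower.

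Copper and titanium sites with the same turned finish differ in the metal, and that comparison gave the same 8 calls. All 8 members rose in Turned Cu relative to Turned Ti, beside 21.1% of all tested genes called higher (2451 of 11617) and 2278 called lower. The log2 differences ran from 1.75 ± 0.34 for NFKB1 (adjusted p = 0.000687) to 4.14 ± 0.58 for NFKBIZ (adjusted p = 6.62e-05), which is 17.6-fold. NFKBIA differed by 3.17 ± 0.57 and NFKB2 by 3.12 ± 0.40. BCL3 differed by 2.68 ± 0.47, NFKBIE by 2.56 ± 0.38, REL by 2.44 ± 0.38 and TNFAIP3 by 2.23 ± 0.45. The members' median was 2.62, against -0.10 for all tested genes. Non-overlap held for 8 of 8 members and for 19% of genes. Without Turned Cu replicate 1 the NFKB1 value was 1.18 (adjusted p = 0.00774) and that of BCL3 2.09 (adjusted p = 0.00301).

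**Figure D2:**
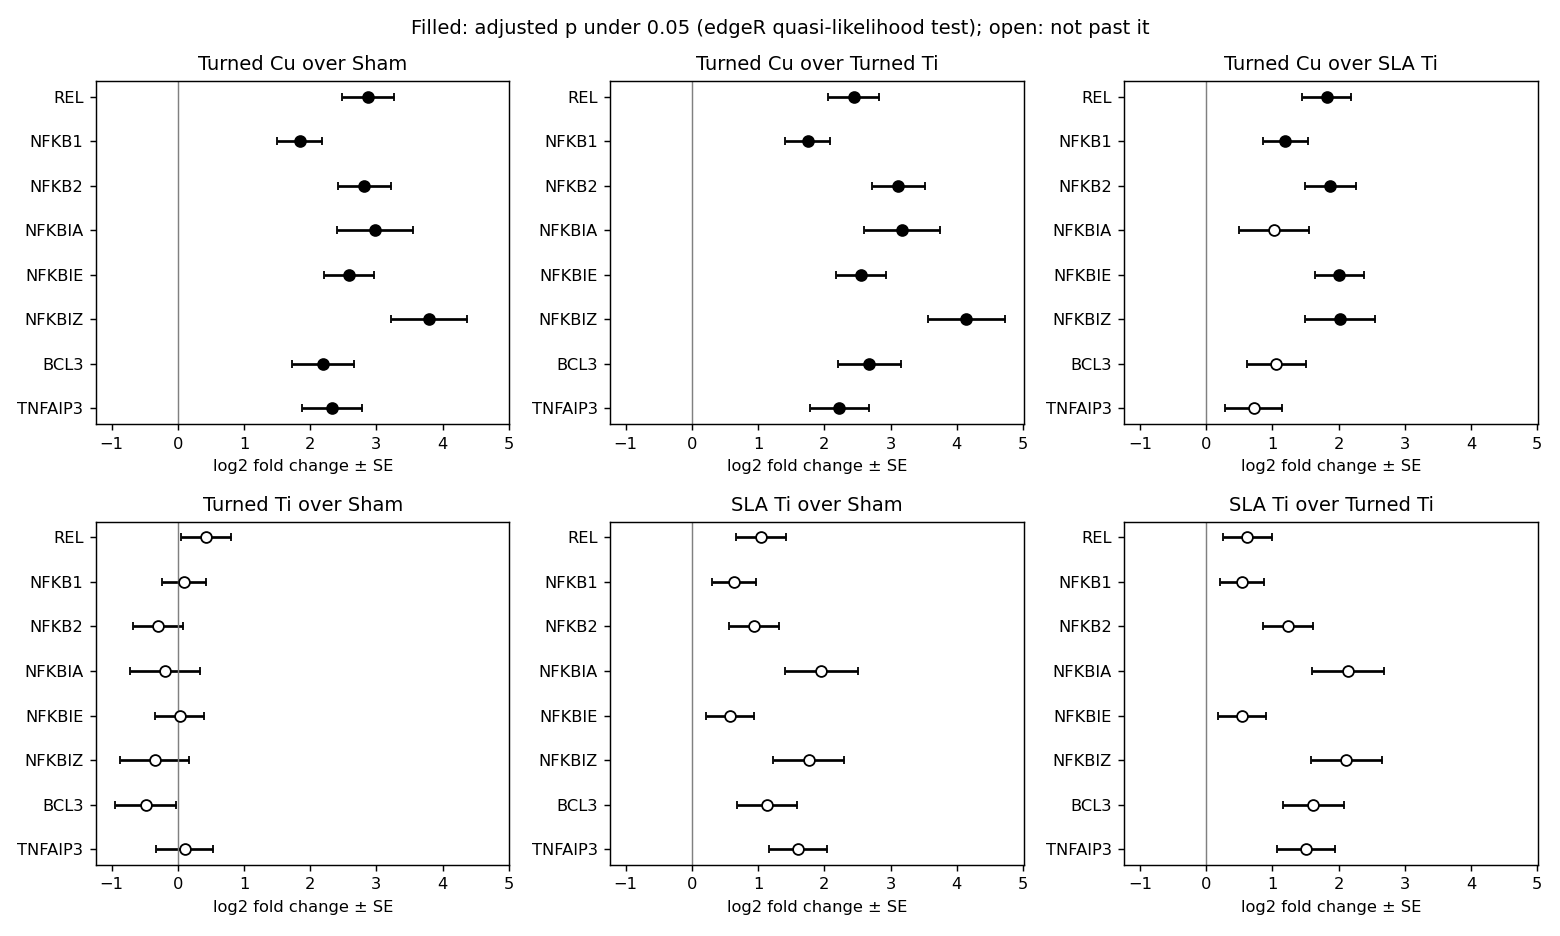
Log2 difference and its standard error for each of the 8 genes in the 6 comparisons, from edgeR's fit to 16 libraries, with calls at adjusted p under 0.05 marked. All 8 values are called in Turned Cu against Sham and against Turned Ti, 5 in Turned Cu against SLA Ti, and 0 in the 3 comparisons without copper. Of all tested genes, 23.2%, 21.1% and 15.3% are called higher in the copper comparisons, in that order, and 0% in the others.

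Against SLA Ti, the turned copper surface differs in both metal and finish. REL, NFKB1, NFKB2, NFKBIE and NFKBIZ rose, 5 of 8, beside 15.3% of all tested genes called higher (1776 of 11617) and 1820 called lower. NFKBIZ differed by 2.03 ± 0.53 (adjusted p = 0.00895), NFKBIE by 2.01 ± 0.37 (adjusted p = 0.00105) and NFKB2 by 1.88 ± 0.38 (adjusted p = 0.00198). REL differed by 1.82 ± 0.37 (adjusted p = 0.002). NFKB1 differed by 1.20 ± 0.33 (adjusted p = 0.0128) and lost its call in 3 of the 8 runs that left out 1 library of either kind, with 0.61 without Turned Cu replicate 1 (adjusted p = 0.155), 0.95 without SLA Ti replicate 2 (adjusted p = 0.0855) and 1.09 without SLA Ti replicate 4 (adjusted p = 0.0568). NFKB1 also missed with no filter on low counts, at 0.97 (adjusted p = 0.0564), and with scaling by protein-coding counts, at 0.59 (adjusted p = 0.15). NFKBIZ lost its call without Turned Cu replicate 3, at 1.45 (adjusted p = 0.065), and was at 2.72 without SLA Ti replicate 3 (adjusted p = 0.00104). NFKB2 was at 1.28 without Turned Cu replicate 1 (adjusted p = 0.0217). Without the 3 libraries rich in ribosomal RNA, NFKB1 was at 1.08 (adjusted p = 0.0743) and NFKBIZ at 1.93 (adjusted p = 0.0527). REL, NFKB2, NFKBIE and NFKBIZ had no overlap between the groups, 4 of 8, which held for 13.4% of genes.

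The remaining inhibitor genes did not pass that test. NFKBIA was 134 ± 71.7 CPM in Turned Cu and 65.96 ± 48.8 CPM in SLA Ti (SD, n = 4 each), a difference of 1.03 ± 0.53 (adjusted p = 0.152). BCL3 differed by 1.06 ± 0.45 (adjusted p = 0.0787), by 1.32 without SLA Ti replicate 4 (adjusted p = 0.0479) and by 0.46 without Turned Cu replicate 1 (adjusted p = 0.48). TNFAIP3 differed by 0.72 ± 0.43 (adjusted p = 0.214), the smallest of the 8. All 8 estimates were above 0 with TMM scaling. On unscaled RPKM, where the median of all genes was -1.73, NFKBIA, BCL3 and TNFAIP3 were below 0. So were REL at -0.011 and NFKB1 at -0.70.

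The copper libraries varied in a shared way. Replicates 1 and 3, from distal sites, were both above replicates 2 and 4, from proximal sites, in 7 of the 8 members, the exception being BCL3. Distal libraries were both above the proximal ones in 0 members in SLA Ti, 1 in Turned Ti and 0 in Sham. The share of all 11617 genes that split this way was not counted. The members are not independent of each other, so these counts are a description. Turned Cu replicates 2 and 4 also had the lowest scaling factors and 84.1% and 77.8% mitochondrial counts, against 74.4% and 72.7% in Turned Cu replicates 1 and 3. The part of these in the members' values was not tested. The authors' deposited table holds comparisons of their own that keep only Turned Cu replicates 2 and 4. In the authors' deposited table that pair of libraries still differed from Sham at q under 0.05 for 8 of 8 members, with log2 values of 1.12 to 2.93, beside 17.4% of the 11617 genes at q under 0.05 and higher. Against Turned Ti the authors' deposited table has 7 of 8, NFKB1 missing at q = 0.089, beside 11.1% of genes, and against SLA Ti 0 of 8, beside 3.84%. Written as SLA Ti over that copper pair, the log2 values ran from -1.34 to 0.448. NFKBIA at 0.156 and TNFAIP3 at 0.448 were higher in SLA Ti there, and the other members were higher beside copper.

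The SLA Ti libraries split as well. Replicates 3 and 4, both from right tibiae, were above replicates 1 and 2, both from left tibiae, in all 8 members. Libraries from right tibiae were both above those from left tibiae in 1 member in Turned Cu, 0 in Turned Ti and 0 in Sham. The share of all genes with that split was not counted here either. Rabbit and position change together within a kind, and their parts were not tested. As CPM of the protein-coding counts alone, the members together had 674, 514, 1463 and 1603 in SLA Ti replicates 1 to 4, against 502, 342, 536 and 359 in Sham. Turned Cu had 1263 to 2742, so the copper and SLA Ti ranges met on that scale too.

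Roughened titanium against the sham hole gave 0 calls among all 11617 genes by edgeR, 0% of genes and 0 of 8 members, with 1658 genes and 6 members at an unadjusted p under 0.05. NFKBIA differed by 1.95 ± 0.55 (adjusted p = 0.121), NFKBIZ by 1.76 ± 0.53 (adjusted p = 0.146) and TNFAIP3 by 1.61 ± 0.44 (adjusted p = 0.116), all on the log2 scale. NFKBIA and TNFAIP3 were higher in SLA Ti than in Sham in 4 of 4 rabbits, and NFKBIZ in 3 of 4. BCL3 differed by 1.13 ± 0.45, REL by 1.05 ± 0.38, NFKB2 by 0.94 ± 0.38, NFKB1 by 0.64 ± 0.33 and NFKBIE by 0.57 ± 0.37. The members' median was 1.09, against 0.00 for all tested genes. Only REL had no overlap, 1 of 8, which held for 4.05% of genes.

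Those 0 calls depended on the tool and on the libraries kept. DESeq2 called 353 of the 6640 genes it tested in SLA Ti against Sham, fewer genes than edgeR tested. Its calls held 3 members, NFKBIA at 1.91 (adjusted p = 0.0181), TNFAIP3 at 1.57 (adjusted p = 0.0263) and NFKBIZ at 1.71 (adjusted p = 0.0412). Without SLA Ti replicate 2, edgeR called 199 of 11927 genes and 2 members, NFKBIA at 2.27 (adjusted p = 0.0414) and TNFAIP3 at 1.88 (adjusted p = 0.0397). Without SLA Ti replicate 1 it called 32 of 11851 genes and 0 members. Without SLA Ti replicate 3 NFKBIZ was at 0.96 against Sham (adjusted p = 0.534). The authors' deposited table has q under 0.05 for the same pair, NFKBIA at 2.05 (q = 0.0221) and TNFAIP3 at 1.70 (q = 0.0236), and NFKBIZ at 1.86 (q = 0.071). Of the 11617 genes tested here, 4.48% in the authors' deposited table were at q under 0.05 and higher in SLA Ti than in Sham.

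The roughened and the turned titanium surface are of the same metal. SLA Ti against Turned Ti gave 0 calls by edgeR, 0% of genes and 0 of 8 members, with 1047 genes and 5 members at an unadjusted p under 0.05. NFKBIA differed by 2.14 ± 0.55 and NFKBIZ by 2.12 ± 0.54 (adjusted p = 0.234 for both), with BCL3 at 1.62 ± 0.46 (adjusted p = 0.271) and TNFAIP3 at 1.51 ± 0.44 (adjusted p = 0.285). NFKB2 differed by 1.24 ± 0.38, and REL, NFKB1 and NFKBIE by 0.62, 0.55 and 0.55. NFKB2, NFKBIA, NFKBIZ and BCL3 were higher in each SLA Ti library than in each Turned Ti library, 4 of 8, against 1.12% of genes. Without SLA Ti replicate 3 NFKBIZ was at 1.33 (adjusted p = 0.811). Without SLA Ti replicate 2 edgeR called 38 of 11927 genes and 0 members. With no filter on low counts it called 87 of 21245 genes and 1 member, NFKBIZ at 2.13 (adjusted p = 0.0472). DESeq2 called 105 of 11577 genes and 2 members here, NFKBIA at 2.12 and NFKBIZ at 2.10. The authors' deposited table has q under 0.05 for 0 of 8, beside 0.146% of genes higher in SLA Ti, the lowest member being NFKBIA at q = 0.0957.

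Turned Ti against Sham gave 0 calls by edgeR, 0% of genes and 0 of 8 members, with 290 genes and 0 members at an unadjusted p under 0.05. DESeq2 likewise called 0 genes. The log2 differences ran from -0.49 ± 0.46 for BCL3 to 0.42 ± 0.38 for REL, with adjusted p of 1 throughout. NFKBIA was 14.9 ± 4.17 CPM in Turned Ti and 17.0 ± 6.67 CPM in Sham, and NFKBIZ was 4.37 ± 0.622 CPM in Turned Ti and 5.58 ± 1.47 CPM in Sham (SD, n = 4 each). In 0 of 8 members was Turned Ti above Sham without overlap, against 0.646% of genes. The authors' deposited table has q under 0.05 for 0 of 8 members here, beside 0.00861% of genes higher in Turned Ti.

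Comparisons that share the copper or the sham libraries are not independent, and the authors' deposited table rests on the same libraries. The authors' deposited table gives all 8 members at q under 0.05 for Turned Cu over Sham, with log2 values of 2.00 to 3.96, beside 24% of the 11617 genes. The contrast of copper with Turned Ti in the authors' deposited table is written as Turned Ti over Turned Cu, so negative values there mean higher beside copper, and it runs from -4.27 to -1.87, with 8 of 8 members at q under 0.05 beside 19.8% of genes higher beside copper. Against SLA Ti the authors' deposited table has 5 of 8 members at q under 0.05, beside 11.7% of genes, written in the same reversed direction, with NFKB1 at -1.13 (q = 0.0496) nearest the threshold.

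Per length, as RPKM divided by the library's TMM factor, NFKBIA was the most abundant member at every kind of site and REL or BCL3 the least. In Turned Cu the means were 102 ± 54.1 for NFKBIA, 39.8 ± 20.2 for NFKBIZ, 27.6 ± 14.5 for NFKB2, 13.2 ± 4.44 for NFKBIE, 12.7 ± 7.17 for TNFAIP3, 10.6 ± 5.51 for NFKB1, 7.82 ± 3.68 for BCL3 and 6.93 ± 3.37 for REL (SD, n = 4 each). Only the step from NFKBIA to NFKBIZ was larger than the larger SD of the pair. In Sham the order was NFKBIA at 12.9 ± 5.08, NFKB2 at 3.91 ± 0.597, NFKB1 at 2.97 ± 0.564, NFKBIZ at 2.88 ± 0.753, TNFAIP3 at 2.54 ± 0.468, NFKBIE at 2.21 ± 0.641, BCL3 at 1.70 ± 0.515 and REL at 0.953 ± 0.0559. From NFKB1 to BCL3 in that order no step exceeded the larger SD of its pair, while the steps from NFKBIA to NFKB2, from NFKB2 to NFKB1 and from BCL3 to REL did. NFKBIZ thus ranked 2 in Turned Cu and 4 in Sham, and NFKB1 ranked 6 in Turned Cu and 3 in Sham.

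Ratios within a library do not depend on its scaling. NFKB1 had the smallest of the 8 differences between Turned Cu and Sham and served as the denominator of 7 ratios, of which 6 were chosen after seeing the data. With that denominator the ratios were bound to lean higher in Turned Cu than in Sham, so their direction there is not a separate result. The log2 ratio of NFKB2 to NFKB1 counts was 1.14 ± 0.14 in Turned Cu, 0.35 ± 0.46 in SLA Ti, -0.19 ± 0.59 in Turned Ti and 0.17 ± 0.36 in Sham (SD, n = 4 each). The copper libraries were above all others in that ratio and varied least. REL to NFKB1 was -0.79 ± 0.07 in Turned Cu and -1.80 ± 0.29 in Sham, again without overlap, and NFKBIZ to NFKB1 was 1.42 ± 0.72 in Turned Cu and -0.54 ± 0.42 in Sham. BCL3 to NFKB1 was -1.58 ± 0.65 in Turned Cu and -1.99 ± 0.45 in Sham, which overlapped. An exact two-sided permutation test of 4 against 4 libraries cannot go below p = 0.0286, which 8 of the 42 tests reached; after Benjamini-Hochberg adjustment over the 42 the smallest p was 0.15, so that no ratio passed.

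**Figure D3:**
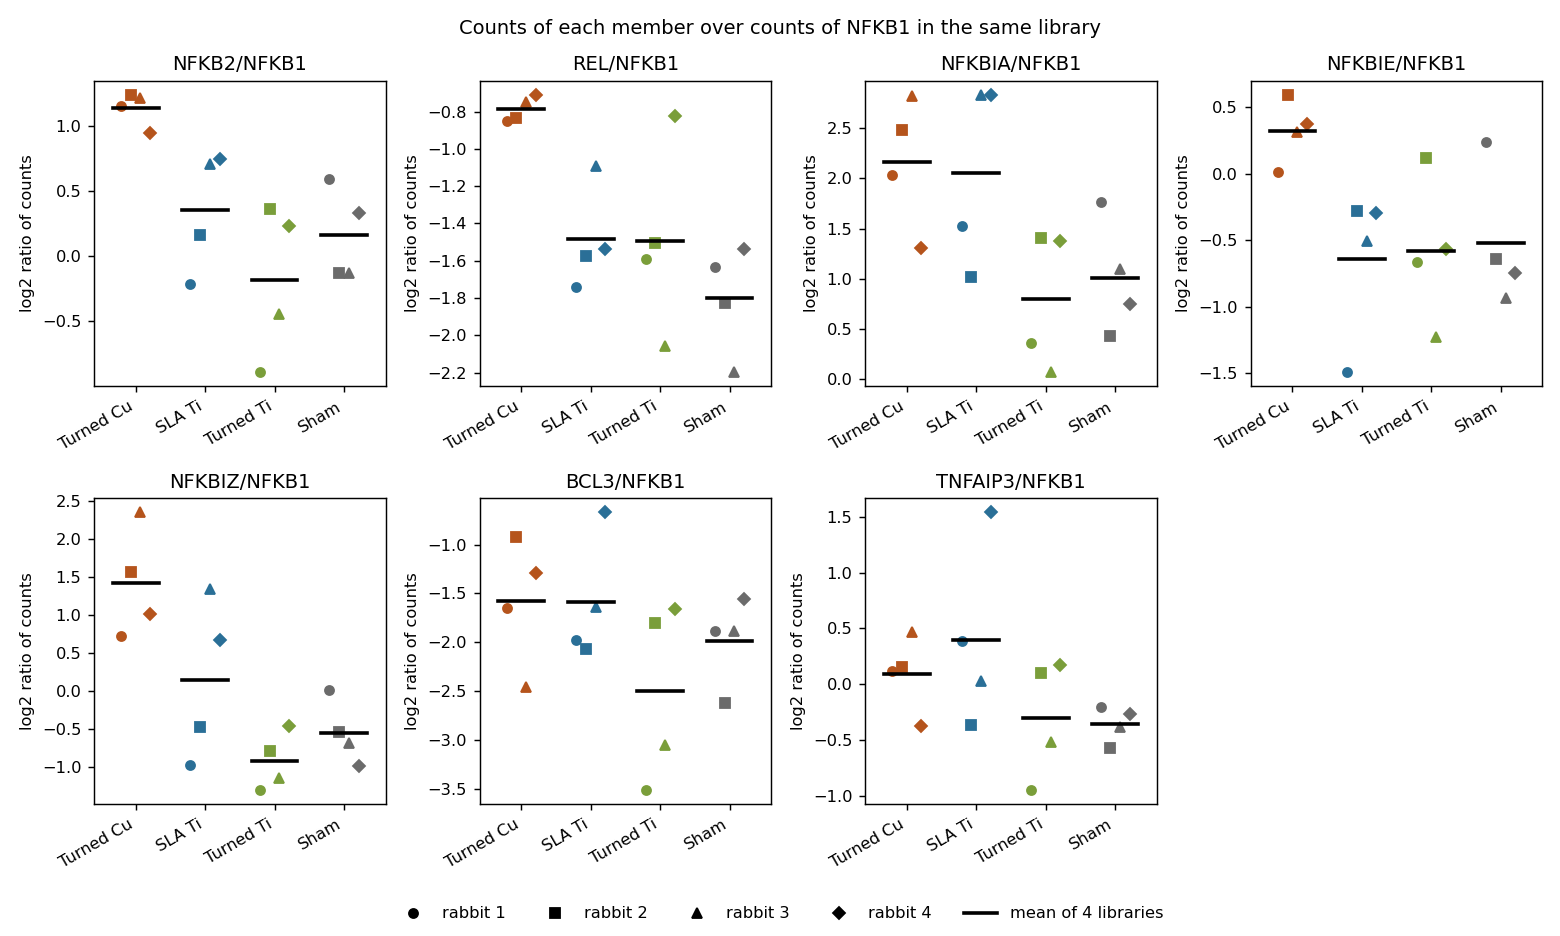
Log2 ratio of each member's counts to those of NFKB1 in the same library, by kind of site. Points are libraries and bars are group means. For NFKB2 over NFKB1 the 4 Turned Cu libraries average 1.14 and lie above every other library, while Sham averages 0.17.

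Within groups the members moved together. After removing group means, the correlation between members over the 16 libraries ran from 0.336 for NFKBIZ with BCL3 to 0.872 for NFKB2 with NFKBIA, with a median of 0.664 over 28 pairs. The libraries share their scaling factor in all such pairs, and the values are a description. The genes whose log2 CPM was most like the members' mean standardised pattern over 16 libraries were RUBCNL (Pearson's r 0.98), CYTH1 (0.977), NDRG1 (0.973), IL4R (0.972) and H2AJ (0.972). After removing group means the most alike were NDRG1 (0.924), RUBCNL (0.883), PTPN9 (0.882), CYTH1 (0.867) and MTHFD1L (0.858). A likeness found among 11617 genes is high by selection.

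Around the members, 5 lists of pathway genes were counted over the same fit, to be read against the 23.2% of all tested genes that were higher in Turned Cu than in Sham. Of 19 tested receptors and ligands that act upstream, 15 rose in Turned Cu relative to Sham and 1, IL1R1, fell. TNFRSF1A, the main TNF receptor, differed by 2.86 ± 0.36 (adjusted p = 2.61e-05), TNFRSF1B by 5.14 ± 0.70 and TLR4, the endotoxin receptor, by 4.26 ± 0.56. LTBR, the lymphotoxin beta receptor of the noncanonical pathway, differed by 2.52 ± 0.36. The list's median was 2.86.

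The ligands varied more. IL1B had 534, 345, 579.9 and 678 CPM in Turned Cu, 9.69, 2.14, 936 and 48.1 CPM in SLA Ti, 0.808, 1.48, 0.824 and 5.88 CPM in Turned Ti and 0.596, 0.134, 3.79 and 0.723 CPM in Sham. SLA Ti replicate 3 was the highest of all 16 libraries, and it also held the highest NFKBIA and NFKBIZ of its group. Turned Cu exceeded Sham by 8.62 ± 1.69 (adjusted p = 0.000597) but SLA Ti by only 1.10 ± 1.21 (adjusted p = 0.528). TNF had 20.5, 7.41, 9.29 and 7.40 CPM in Turned Cu, 0.230, 0.361, 6.01 and 3.42 CPM in SLA Ti, 0.0646, 0.590, 0.215 and 0.248 CPM in Turned Ti and 0, 0.269, 0.0612 and 0.201 CPM in Sham. It rose against Sham by 6.44 ± 1.07 (adjusted p = 0.000165), an estimate that rests on 8 counts over the 4 Sham libraries, and against SLA Ti by 2.18 ± 0.79 (adjusted p = 0.0447).

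Of 26 tested kinase and adaptor genes, 14 rose in Turned Cu relative to Sham, 1 fell (TAB1) and 11 did not pass, with a median of 1.03. Leaving out Sham replicate 1 lowered the number that rose to 9, beside 2133 of 11897 genes. Scaling by protein-coding counts lowered it to 7, beside 1630 of 11617 genes. IRAK2, an adaptor of interleukin 1 and Toll-like receptors, differed by 5.06 ± 0.66 (adjusted p = 2.99e-05), MALT1 by 4.21 ± 0.63 and RIPK1 by 2.06 ± 0.29. Among the IkappaB kinase subunits, IKBKG, the regulatory one, rose by 2.24 ± 0.36 (adjusted p = 0.000133), IKBKB, the kinase of the classical pathway, by 1.08 ± 0.39 (adjusted p = 0.0342), and CHUK, the kinase of the noncanonical pathway, stood at 0.06 ± 0.27 (adjusted p = 0.883). For IKBKB the groups overlapped, with 24.2, 6.04, 22.8 and 8.26 CPM in Turned Cu against 6.59 to 9.08 CPM in Sham. IKBKB did not pass against Turned Ti (adjusted p = 0.0632) or SLA Ti (adjusted p = 0.385).

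Other inhibitors and modulators numbered 19, of which 8 rose, 2 fell (NFKBIL1 and OTUD7B) and 9 did not pass, with a median of 0.94. NFKBID, another nuclear IkappaB, differed by 4.40 ± 0.61 (adjusted p = 4.4e-05) and NFKBIB, which encodes IkappaB beta, by 2.14 ± 0.34. ZC3H12A, an RNase that degrades inflammatory transcripts, differed by 3.46 ± 0.52, and CYLD, a deubiquitinase that limits the pathway, by 2.38 ± 0.43. COMMD1, known both for copper handling and for limiting NF-kappa-B, stood at -0.93 ± 0.45 (adjusted p = 0.105).

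Textbook target genes numbered 23, of which 13 rose, 1 fell (VCAM1) and 9 did not pass, with a median of 2.00. PTGS2, the inducible prostaglandin synthase, differed by 9.44 ± 1.42 (adjusted p = 7.62e-05), B2M by 5.37 ± 0.73, CSF1 by 4.79 ± 0.46 and CD83 by 2.93 ± 0.42. VCAM1, an adhesion molecule of activated endothelium, was 0.463 ± 0.617 CPM in Turned Cu and 11.5 ± 6.23 CPM in Sham. Of 16 other transcription factors of the same stimuli, 13 rose and 0 fell, with a median of 3.53. IRF1, which is on both of these lists, differed by 4.54 ± 0.59 and CEBPB by 4.09 ± 0.58.

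Relative to Turned Ti the numbers that rose beside copper were 14 of 19 receptors and ligands, 12 of 26 kinases and adaptors, 8 of 19 inhibitors, 14 of 23 targets and 13 of 16 transcription factors, beside 21.1% of all tested genes. Relative to SLA Ti they were 11, 9, 7, 11 and 10, beside 15.3%. These last counts fell when some libraries were left out, and so did the calls among all genes. Genes called higher in Turned Cu than in SLA Ti numbered 1776 of 11617 in the main fit. They numbered 992 of 11974 without Turned Cu replicate 1, 1322 of 11913 without replicate 2 and 1008 of 11932 without replicate 3. Without SLA Ti replicates 1, 2 and 4 in turn they numbered 1274 of 11851, 915 of 11927 and 1013 of 11914. Receptors and ligands numbered 4 without SLA Ti replicate 2 or 4, 5 without Turned Cu replicate 1, 6 without Turned Cu replicate 3, and 7 without Turned Cu replicate 2 or SLA Ti replicate 1. Kinases and adaptors numbered 4 without Turned Cu replicate 1 or 3 or SLA Ti replicate 2, and transcription factors 5 without SLA Ti replicate 2 and 6 without Turned Cu replicate 1. Against Turned Ti, kinases and adaptors numbered 7 without Turned Cu replicate 1, beside 1912 of 11974 genes called higher. In the 3 comparisons without copper the number was 0 in every list in the main edgeR fit. Without SLA Ti replicate 2 it was 6 receptors and ligands and 5 targets in SLA Ti against Sham, beside 198 of 11927 genes. With no filter on low counts it was 5 receptors and ligands and 5 targets in SLA Ti against Sham, beside 190 of 21245 genes. Against Turned Ti it was 4 and 5, beside 75 of 21245 genes.

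**Figure D4:**
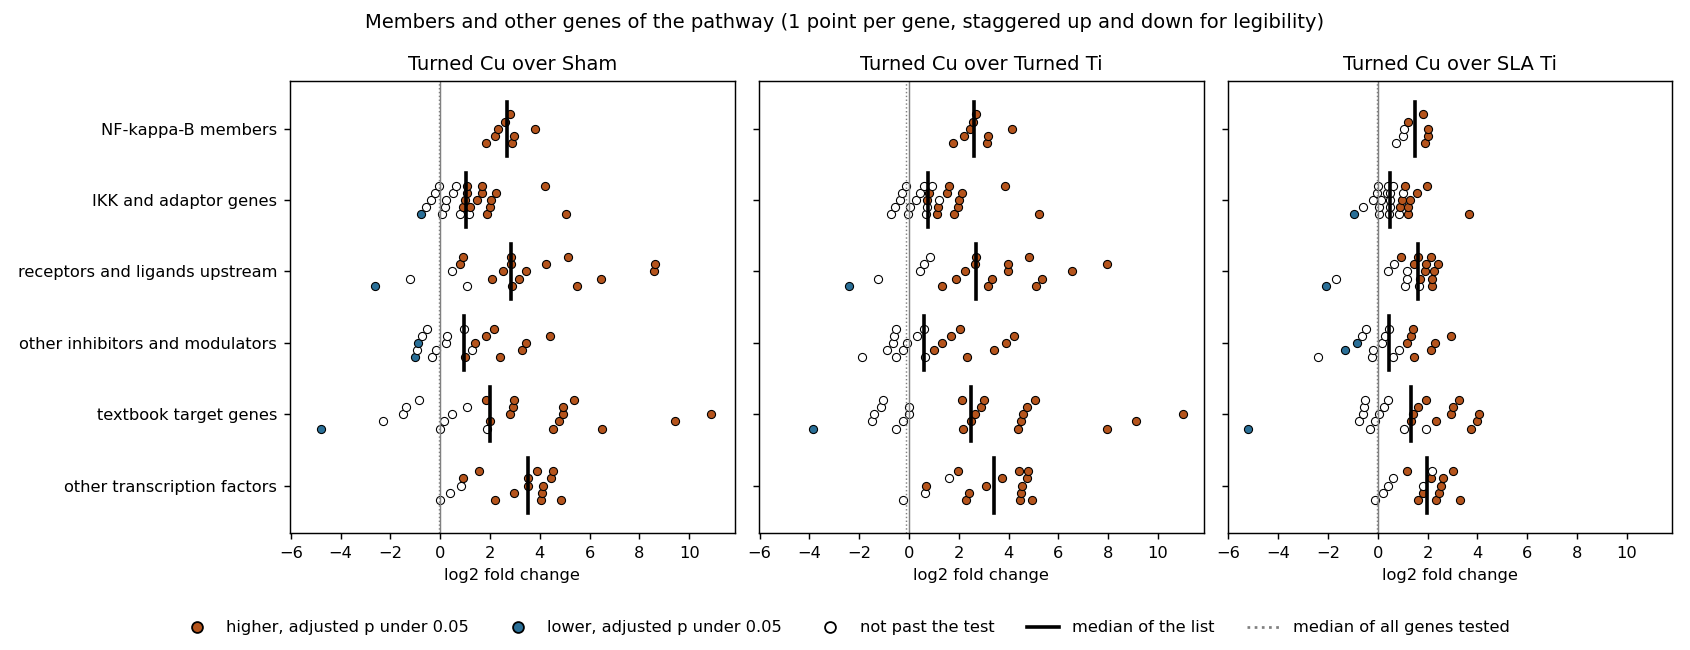
Log2 fold change of each member and of each tested gene of the 5 pathway lists in Turned Cu over Sham, over Turned Ti and over SLA Ti, 1 point per gene, filled where adjusted p was under 0.05, with a thick bar at the list's median and a dotted line at the median of all genes tested. Over Sham the median of the 16 other transcription factors is 3.53 and that of the 26 kinases and adaptors 1.03, and the lone lower target gene is VCAM1 at -4.79.

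Markers of several cell types differed between Turned Cu and Sham, and their part in the members' values was not tested. In Turned Cu against SLA Ti, 1 of 10 tested neutrophil markers was called higher, 1 lower and 8 did not pass. Of 10 tested macrophage markers, 3 were called higher there, 3 lower and 4 did not pass, beside 15.3% of all tested genes called higher. The summed level of 10 neutrophil markers was 1238 to 2468 CPM in Turned Cu, 367 to 2460 CPM in SLA Ti, 218 to 509.7 CPM in Turned Ti and 261 to 376 CPM in Sham. Of these markers, 8 of 10 rose in Turned Cu relative to Sham, among them CSF3R at 5.72 ± 1.26 (adjusted p = 0.00154). MMP9, which did not pass (-1.37 ± 0.62, adjusted p = 0.0836), made up most of the sum in Turned Ti and Sham, with a mean of 91.5 CPM in Turned Cu, 153 CPM in SLA Ti, 254 CPM in Turned Ti and 236 CPM in Sham. SLA Ti replicate 3 had the highest neutrophil sum of its group, and replicates 1, 2 and 4 had 681, 367 and 632 CPM. The highest TNFAIP3 and BCL3 of that group were in replicate 4, whose neutrophil sum was below that of replicate 1.

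The sum of 5 granulocyte precursor markers was 47.7 to 125 CPM in Turned Cu, 75.7 to 1324 CPM in SLA Ti, 6.56 to 923.5 CPM in Turned Ti and 6.18 to 330 CPM in Sham. Of the 4 tested, 0 passed in Turned Cu against Sham. In Turned Cu 3 of the 4 fell against Turned Ti and against SLA Ti, among them EPX (adjusted p = 0.0175 against Turned Ti and 0.0131 against SLA Ti) and CAMP (adjusted p = 0.0384 against Turned Ti and 0.00909 against SLA Ti). EPX was at 0 in all libraries of Turned Cu but of no other group, and CTSG was at 0 in Turned Cu, Turned Ti and Sham. The sum of 11 macrophage markers was 610 to 952 CPM in Turned Cu and 109 to 169 CPM in Sham, with 3 of 10 tested markers higher beside 23.2% of all genes. The sum was carried by CD68, at 499 CPM in Turned Cu and 32.1 CPM in Sham on average, and CD14, at 121 CPM in Turned Cu and 11.1 CPM in Sham. CD68 rose by 3.96 ± 0.61 and CD14 by 3.45 ± 0.54, and 7 of the 10 did not pass, with CSF1R at 0.12 ± 0.42 (adjusted p = 0.846). Of 7 tested endothelial markers 2 rose and 4 fell, and STAB2 was at 0 in Turned Cu. Markers of T cells summed to 6.02 to 8.91 CPM in Turned Cu, above all 12 other libraries, against 1.34 to 5.85 CPM in SLA Ti, 0.356 to 1.74 CPM in Turned Ti and 0.941 to 3.18 CPM in Sham. CD5, 1 of the 2 tested, rose by 2.30 ± 0.60 against Sham (adjusted p = 0.00539). Markers of B and plasma cells summed to 8.52 to 135 CPM in Turned Cu and 10.1 to 97.7 CPM in Sham.

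Bone and stromal markers went the other way. The sum of 11 osteoblast and osteocyte markers was 354 to 2675 CPM in Turned Cu and 7810 to 20950 CPM in Sham, and 9 of 10 tested markers fell, with COL1A2 at -4.46 ± 0.84. Fibroblast markers summed to 709 to 1021 CPM in Turned Cu and 3334 to 4423 CPM in Sham, and 6 of 7 fell. Erythroid markers summed to 30.4 to 67.1 CPM in Turned Cu and 7.71 to 71.7 CPM in Sham, with 1 of 4 higher. Skeletal muscle markers were low at all but 1 site, with sums of 1.00 to 3.51 CPM in Turned Cu, 0.843 to 1.90 CPM in SLA Ti and 1.04 to 1.79 CPM in Sham. Turned Ti replicate 1 had 170.6 CPM.

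**Figure D5:**
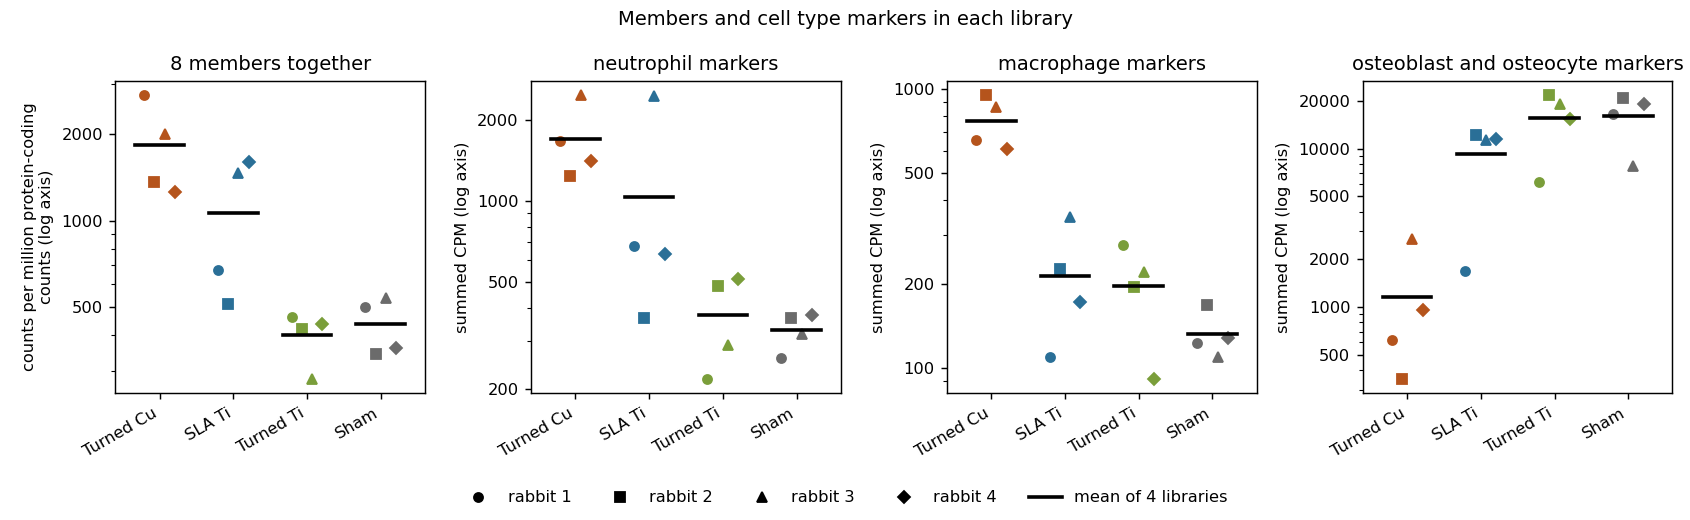
The 8 members together, as CPM of the protein-coding counts, and the summed CPM of neutrophil, macrophage, and osteoblast and osteocyte markers in each library, on log axes, by kind of site. Points are libraries with a symbol for each rabbit, and bars are means of 4 libraries. SLA Ti replicate 3 has a neutrophil sum of 2460 CPM, inside the Turned Cu range of 1238 to 2468 CPM, while its macrophage sum of 347 CPM is below the Turned Cu range.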

How the data were processed

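RNA of 16 tissue samples (4 rabbits, 4 kinds of site, day 10) was extracted with TRIzol and DNase and sequenced from stranded total RNA libraries, per the labels' protocols. The submitters' processing notes name STAR 2.7.1a and Cufflinks 2.2.1 without their roles, and no source used here names the genome build. The authors deposited estimated counts per gene, given as whole numbers, beside RPKM per gene; 191 cells hold a count of 0 with an RPKM above 0. The authors also deposited log2 fold changes with p-values and q-values, whose direction (second-named over first-named group) was read from the values. Counts were tested with edgeR 4.0.16 (R 4.3.3): filterByExpr at a minimum count of 10, TMM, 1 mean per group over all 16 libraries, quasi-likelihood F test, Benjamini-Hochberg adjustment within each comparison and a threshold of 0.05. Log2 fold changes were those of the edgeR fit at its default prior count, and their SE was taken as their size divided by the root of the F value. The log2 CPM behind the correlations used a prior count of 2. Ratios used counts plus 0.5. limma 3.58.1 on log2(RPKM + 0.1) and DESeq2 1.42.0 were alternatives. Total counts of 8539984 to 20406474 a library set the precision. Same-numbered samples come from the same rabbit, per the labels, and so are paired; deviations of same-rabbit libraries correlated at -0.167 to 0.316 (median 0.106, 24 pairs). A fit with rabbit as block was an alternative. The members and lists were chosen with earlier results of these data known. The members were named whatever their p; of each pathway list up to 5 genes of smallest p in Turned Cu against Sham and any gene that answers a count of 5 or fewer were named, plus a set of core pathway genes, and of each marker list up to 3 of highest CPM. Statistics were tested on simulated data.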

Additional observations from a re-analysis of the deposited data

How the results depend on the processing

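Across 29 settings (25 planned and 4 chosen after seeing the data, 16 of them leaving out 1 library), 1392 values of members were compared with the main ones. The side of the threshold was kept in 1355, 25 lost their call and 10 gained one. In 2 more, called values changed sign and lost their call. These were REL at -0.011 and NFKB1 at -0.70 in Turned Cu against SLA Ti on log2(RPKM + 0.1). Values not called in the main fit could change sign within the 1355. NFKBIA, BCL3 and TNFAIP3 in Turned Cu against SLA Ti were below 0 on log2(RPKM + 0.1). In Turned Ti against Sham, leaving out 1 library took NFKB1 from 0.09 to as low as -0.15 and NFKBIE from 0.03 to as low as -0.15. On log2(RPKM + 0.1), 1 member passed in Turned Cu against Sham, 1 against Turned Ti and 0 against SLA Ti. In the same order, 689, 470 and 134 of 11617 genes were called higher beside copper, and 2914, 5444 and 6559 lower. All genes past the test in that unit, in either direction, numbered 6693 in Turned Cu against SLA Ti. They numbered 368 in SLA Ti against Sham and 7 in SLA Ti against Turned Ti, all higher in SLA Ti. The medians of all genes in that unscaled unit were -1.0, -1.51 and -1.73 for copper against Sham, Turned Ti and SLA Ti. With RPKM over the TMM factor 8, 8 and 6 members passed, beside 2689, 2478 and 1908 of 11617 genes called higher. In the unscaled unit 9 receptors and ligands, 2 kinases and adaptors and 3 other inhibitors rose in Turned Cu against Sham, beside the 689 of 11617 genes.

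With rabbit as replicate block, 8, 8 and 5 members passed in the 3 copper comparisons and 0 in the others; the pairing changed no call of a member and gave 1 gene in SLA Ti against Turned Ti. Adding location to the block gave 1 gene against Sham and 1 against Turned Ti. DESeq2 called 3 members and 353 of 6640 genes in SLA Ti against Sham, and 2 members and 105 of 11577 genes against Turned Ti. With no filter on low counts these were 195 of 21245 genes against Sham, and 1 member (NFKBIZ, 2.13) with 87 of 21245 genes against Turned Ti. Leaving out 1 library gave 0 to 2 members and 0 to 199 genes in SLA Ti against Sham, 0 to 38 genes against Turned Ti, and 4 to 5 members in Turned Cu against SLA Ti. Without the 3 libraries over 40% ribosomal RNA, 3 members passed in Turned Cu against SLA Ti. The cause of these changes was not tested.

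The 4 planned ratios over RELA could not be run. Counts of 330 to 4869 for all members a library, and 866 for BCL3 over 16 libraries, limit what can be seen of small differences.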
